A study of Mus musculus with 4 samples.

Results

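The genes described here encode the enzymes that put a methyl group on adenosine in RNA, the proteins that hold the main enzyme complex together, and Alkbh5, the other known remover of the mark besides Fto. They were chosen by name: Mettl3, Mettl14, Wtap, Rbm15, Rbm15b, Zc3h13, Cbll1, Pcif1, Mettl4 and Alkbh5. All 10 were measured in the input RNA, among 12883 genes. For 9 of them the authors' deposited table used the current symbol, and Mettl14 was listed there under its older name G430022H21Rik and matched by gene identifier. In the immunoprecipitate none of the 7569 transcript features analysed here matched a member under any of 40 current and older names.

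RNA came from the liver of wild-type mice and of mice labelled Fto knockout, both on a C57/Bl6 background, and was read as input RNA and after immunoprecipitation with an antibody against methylated adenosine. The method, miCLIP, crosslinks the antibody to the RNA and clones the bound fragments. The 4 labelled samples form 4 groups (wild-type input, Fto knockout input, wild-type immunoprecipitate and Fto knockout immunoprecipitate), each labelled with 3 replicates, and none is described as treated. The labels give no age or sex, no allele or Cre driver for the knockout, and no word on whether each replicate came from its own animal. The p-values therefore reflect only how far these libraries scattered, and that scatter may be technical.

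N6-methyladenosine (m6A) is the common internal mark of messenger RNA. METTL3 carries out the reaction and METTL14 holds the RNA beside it, while WTAP, VIRMA, ZC3H13, CBLL1 and the RBM15 pair anchor the enzyme in the nucleus and bring it to its targets. A different mark, m6Am, sits on the first base after the cap when that base is an adenosine already methylated on its ribose, and PCIF1 writes it on messenger RNA; METTL4 writes an internal m6Am in the U2 small nuclear RNA. ALKBH5 removes m6A, and FTO removes the methyl group from both m6A and m6Am.

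What was deposited are comparison tables with no value for a single library, so each gene has a mean normalized count over all libraries, a log2 fold change and its standard error (SE). The header states no direction. Fold changes in the input are given here as knockout against wild type on the strength of Fto itself, whose value in the authors' deposited table was −1.49 on the log2 scale (SE 0.27) with an adjusted p of 3.52e-04. Its mean there was 55.8, so the targeted gene was measured at a level inside the range of the members. The input behaved as liver by its defining transcripts: 7 of 7 hepatocyte markers were present at means from 294 to 84262. Means ran from 9.70 to 240 for 6 macrophage markers, 45.1 to 234 for 4 endothelial and 9.65 to 270 for 4 stellate. They ran from 2.13 to 10.1 for 4 cholangiocyte and from 1.73 to 44.1 for 3 of 4 lymphocyte markers. No marker of any cell type had an adjusted p under 0.05, where 0.0389% of tested genes did, so composition is not shown to be unchanged. Log2 fold changes of hepatocyte markers ran from −0.23 to 0.57, with a lowest unadjusted p of 0.0302 in the authors' test. In whole liver, fewer cells of a type and less RNA per cell cannot be told apart.

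No writer, cofactor or demethylase among the 10 passed the authors' test in the input. The number called was 0 at an adjusted p under 0.05, beside 5 of 12865 tested genes (0.0389%) in the authors' deposited table, so a count of 0 is near the background. None had an unadjusted p under 0.05 either, against 2.21% of all genes. Of the 10 values, 6 lay above 0 and 4 below, where 53.5% of all genes lay above 0. Their median log2 fold change was 0.12, beside 0.02 for all genes, and single values ran from −0.27 to 0.22.

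Every one of the 10 values was smaller than its own SE. The ratio of fold change to SE ran from 0.381 to 0.945 in size, and 77.8% of all genes had a ratio under 1 in size. All 10 of the 95% intervals, taken from the normal distribution with the authors' SE, included 0. Among the called genes of the input, the smallest fold change was 1.08 in size. The smallest ratio among them was 4.31, taken separately, so it need not belong to the same gene.

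**Figure D1:**
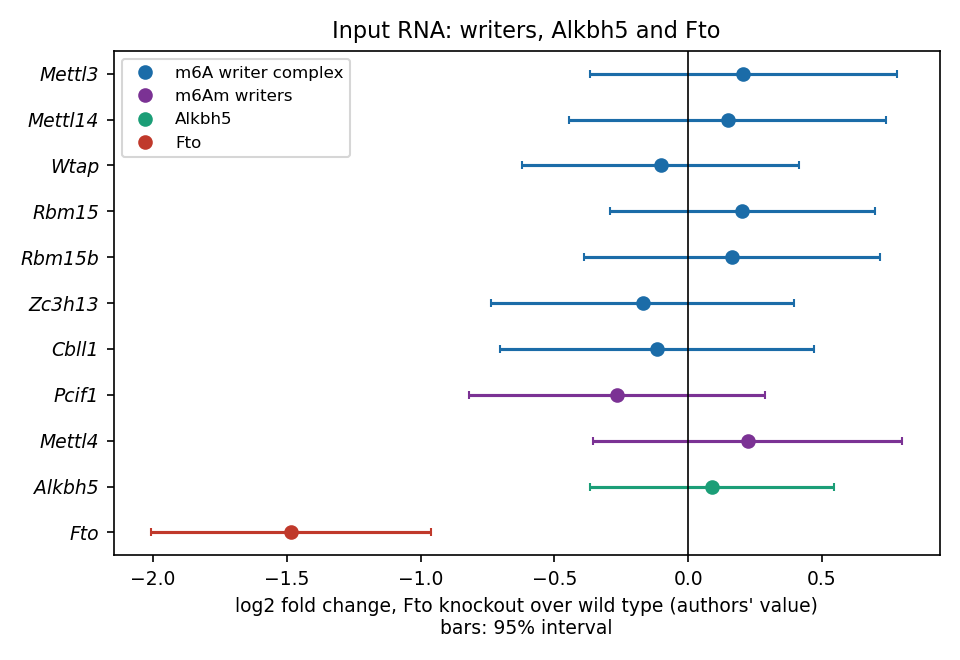
The horizontal axis is the authors' log2 fold change in input RNA, knockout over wild type, with 95% intervals as bars, for the 10 members and Fto, coloured by role. All 10 member intervals cross 0, and that of Fto runs from −2.01 to −0.96.

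Mettl3, the catalytic subunit, lies on chromosome 14 at 52294841 to 52308741 (build GRCm38). In the authors' deposited table it had a mean of 23.4 and a log2 fold change of 0.20 (SE 0.29, p = 0.484), with an interval from −0.37 to 0.78. That is a knockout to wild-type ratio of 1.15 on a scale that appears to pull estimates towards 0. Its partner Mettl14, on chromosome 3 at 123368295 to 123385990, stood at 0.15 (SE 0.30, p = 0.626) with a mean of 12.8 in the authors' deposited table. The values of this pair, which act as 1 enzyme, were 0.06 apart, with an interval of −0.77 to 0.88 for that difference if their errors are taken as independent.

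Wtap, which anchors the enzyme pair in nuclear speckles, lies on chromosome 17 at 12966799 to 12992543. Its log2 fold change was −0.10 (SE 0.26, p = 0.700) at a mean of 45.6 in the authors' deposited table. Zc3h13, which keeps the complex in the nucleus, lies on chromosome 14 at 75284306 to 75344433 and stood at −0.17 (SE 0.29, p = 0.555) with a mean of 24.3 in the authors' deposited table. Cbll1 encodes Hakai, a ubiquitin ligase found in the complex, and lies on chromosome 12 at 31484829 to 31500676. It stood at −0.12 (SE 0.30, p = 0.700), and its mean of 9.49 is among the lowest of the set, in the authors' deposited table. These 3 adaptors were the members of the complex with values below 0, none of them distinguishable from 0.

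Rbm15 and Rbm15b encode related RNA-binding proteins that bring the complex to particular transcripts. Rbm15, on chromosome 3 at 107305511 to 107334460, stood at 0.20 (SE 0.25, p = 0.423) with a mean of 97.5 in the authors' deposited table. Rbm15b, on chromosome 9 at 106880928 to 106887075, stood at 0.16 (SE 0.28, p = 0.563) with a mean of 33.7 in the authors' deposited table. Their values differed by 0.04, with an interval from −0.70 to 0.78. Across the 7 members of the complex 4 lay above 0 and 3 below, with a median of 0.15. VIRMA, the scaffold of the same complex, was not among the chosen genes and is given here after its value was seen: Virma stood at 0.12 (SE 0.25, p = 0.637) at a mean of 80.1 in the authors' deposited table.

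The writers of m6Am held both ends of the range. Pcif1, the writer at the cap, lies on chromosome 2 at 164879368 to 164891440 and had the lowest value of the 10, −0.27 (SE 0.28, p = 0.345), at a mean of 35.7 in the authors' deposited table. Mettl4, on chromosome 17 at 94722590 to 94750214, had the highest, 0.22 (SE 0.29, p = 0.451), at a mean of 7.82 in the authors' deposited table. They were 0.49 apart, and as the extremes of the set they are described without a test.

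Alkbh5, the m6A demethylase that was not targeted in these mice, lies on chromosome 11 at 60537683 to 60558512. It had the most read support of the 10, with a mean of 211, and a log2 fold change of 0.09 (SE 0.23, p = 0.703) in the authors' deposited table. Its interval ran from −0.37 to 0.54, the narrowest of the set. The same table thus held Fto at a ratio of 0.357 and Alkbh5 at 1.06, knockout over wild type.

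**Figure D2:**
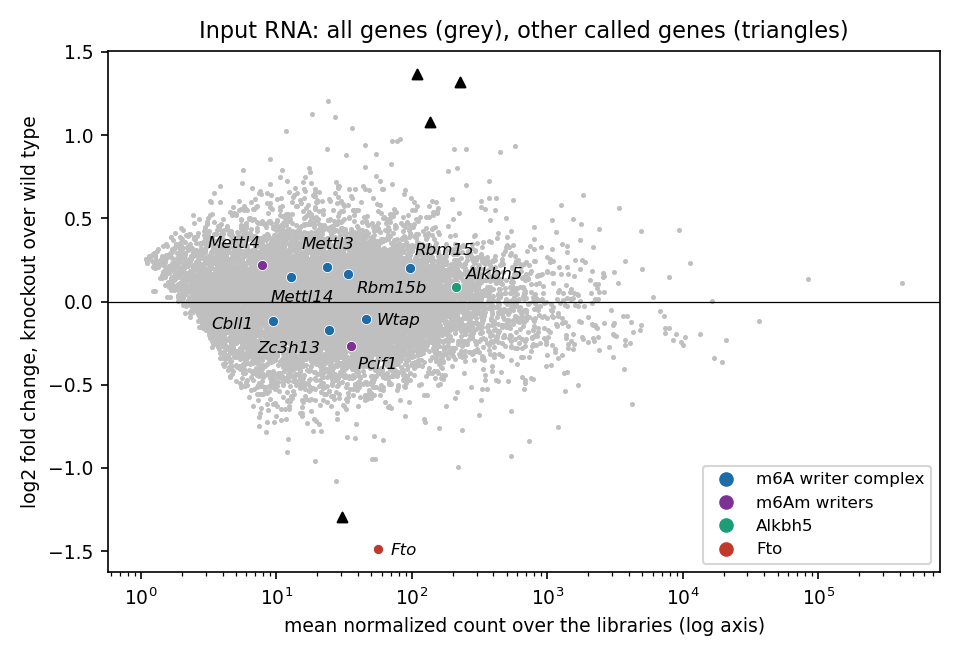
Each point is a gene of the input table, placed by its mean normalized count (log axis) and its log2 fold change, with members and Fto coloured and the 4 other called genes as triangles. The members lie inside the cloud of all genes, between −0.27 and 0.22.

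How firmly a value near 0 can be read differs between members, and the printed SE alone does not show it. Across protein-coding genes the median SE in the authors' deposited table was 0.232 at means up to 3, climbed to 0.301 at means from 10 to 15, and came down again to 0.230 at means from 200 to 500. No SE exceeded 0.302. A gene with very few reads thus had an SE like that of Alkbh5, and at low means a smaller SE is not a sign of a better measured gene. Mettl14 stood at 99.99% of the largest SE, Cbll1 at 99.3% and Mettl4 at 97.6%, against 76.9% for Alkbh5. Cbll1 and Mettl4, at means of 9.49 and 7.82, had the least read support of the 10. A capped SE and small fold changes are the form of shrunken estimates, though no source used here states that shrinkage was applied. Read that way, the intervals do not limit the change on an unshrunken scale. Means are not divided by transcript length and give read support, not an order of expression between genes.

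**Figure D3:**
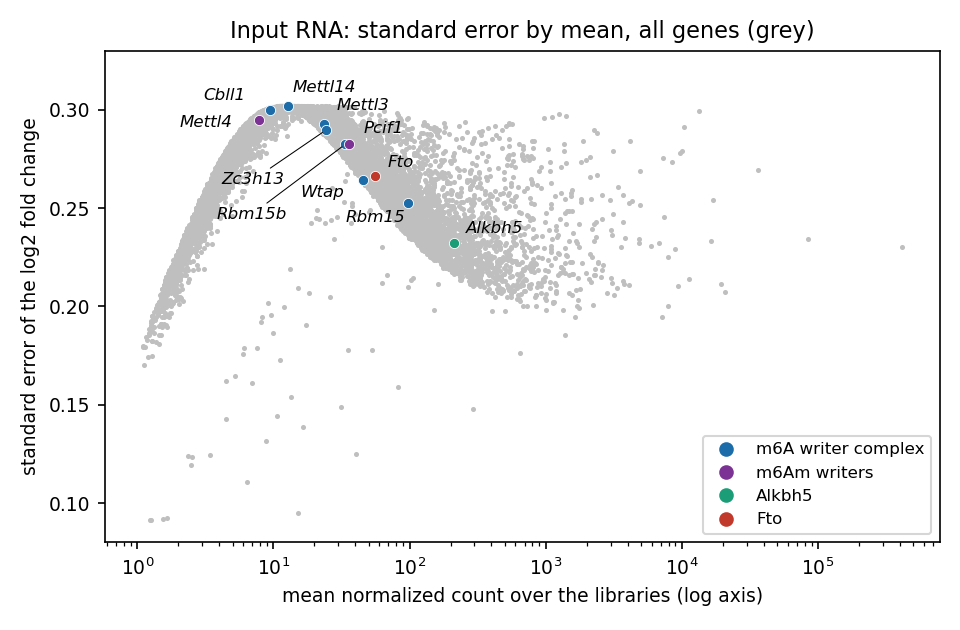
The standard error of the log2 fold change (vertical axis) is plotted against the mean normalized count (log axis) for every gene of the input table. It has a ceiling at 0.302 near means of 10 to 15, where Mettl14 sits, and is lower on both sides.

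Start-site sequences were compared because cap-adjacent m6Am needs an adenosine as the first base. RefSeq windows of 300 bases (250 before and 50 after an annotated start, GRCm38.p6) were found for 9 members, 13 windows in all; Mettl14 had none. The annotated first base was A in 2 of the 13, G in 7, C in 3 and T in 1, while A was the first base in 29.6% and G in 46.2% of 12581 windows of protein-coding input genes. Both A starts belong to genes with more than 1 annotated start. Shown here are 30 bases around each start, with the first transcribed base, number 21, in capitals, for the start pair of Pcif1, the A start of Wtap and the single start of Alkbh5, at chr2:164879348-164879377 (plus strand), chr2:164880032-164880061 (plus strand), chr17:12992250-12992279 (minus strand) and chr11:60537663-60537692 (plus strand).
Pcif1, first start: ggtaccgacgcatgcgcagcGcggagtccc
Pcif1, second start: ccgagttccgctgcttgcgcAgatacagtt
Wtap, A start: gcgcgctcggggcggggcgcAgtccgggcg
Alkbh5: gggcggtcacggggcggactGggttgtggc
Which start liver uses was not measured here, so these letters describe the annotation only.

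The 300-base windows were also searched on both strands for 6 short motifs, chosen with the sequences in view. CGGAAG, the core bound by ETS factors, was found in windows of 5 of 9 members, beside 33.5% of 9762 protein-coding input genes. GGGCGG, the GC box, was found in 8 of 9 beside 67.3% (the letters of this box and of the ETS core can overlap). The CCAAT box was found in 4 beside 43.0%, the NRF1-type GCATGCGC in 2 (Pcif1 and Mettl4) beside 5.97%, the E-box CACGTG in 1 beside 11.7%, and TATAAA in 0 beside 9.36%. A match describes letters, not a bound site. In 4 members an ETS core lay within the 30 bases shown, with the motif in capitals, at chr14:52305115-52305144 (minus strand), chr17:94750010-94750039 (minus strand), chr12:31499607-31499636 (minus strand) and chr14:75284346-75284375 (plus strand, the first of the starts of Zc3h13).
Mettl3: gtccggctggttcgccaacCGGAAGtggct
Mettl4: cctcgtcgcCGGAAGtgtccgcatcggcgg
Cbll1: ggcgcaCTTCCGcctctgcgctcCGGAAGg
Zc3h13: cgggcaaactcgcgaCTTCCGtcggctttt
Of the 4 genes with this shared stretch, Mettl3 and Mettl4 stood at 0.20 and 0.22 in the input, Cbll1 and Zc3h13 at −0.12 and −0.17, in the authors' deposited table. Each value was smaller than its own SE, so no direction can be read for any of these genes, and a link to the motif was not tested.

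In the immunoprecipitate no value could be given for any member. Features there were fewer and thinner than in the input, with a median mean of 4.92, and 31.1% of the 12379 protein-coding input genes had at least 1 feature among those analysed here. That share grew with the input mean, from 14.4% at means up to 3 to 79.8% at means over 500. Among protein-coding genes with an input mean within a factor of 1.2 of the member's, 52.1% of 384 had a feature for Alkbh5, 43.4% of 841 for Rbm15 and 32.3% of 1153 for Wtap. For the others the share ran from 18.9% (Mettl4) to 30.3% (Pcif1). For every member but Alkbh5, most genes of a like input mean also had no feature. Whether a transcript was not bound or its row is not among those analysed cannot be told apart, and 155 of 6715 protein-coding features had a name that matched no current gene.

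**Figure D4:**
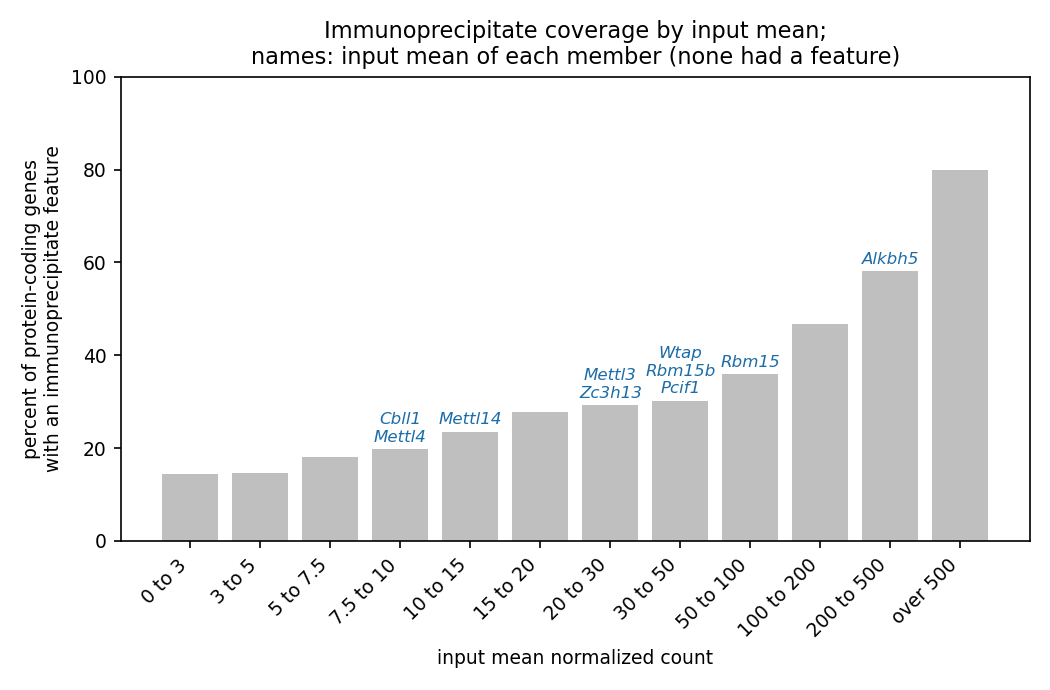
Bars give the percent of protein-coding input genes that have a feature in the immunoprecipitate, by input mean; names mark the bin of each member, none of which had a feature. The bars grow from 14.4% to 79.8%, and Alkbh5 falls in a bin at 58.1%.

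Other genes of the pathway were read from 4 lists: other adenosine and cap methyltransferases, other ALKBH enzymes, readers of the mark, and the cycle that supplies S-adenosylmethionine, the methyl donor. In the input 52 of their genes were measured and 0 were called, beside 0.0389% of all tested genes, so a count of 0 is near the background. An unadjusted p under 0.05 was reached by 0, beside 2.21% of all tested genes. Of the 52, 37 lay above 0 and 15 below, where 53.5% of all genes lay above 0. Their median was 0.10, beside 0.02 for all genes. In the immunoprecipitate 18 of these genes had 29 features, some of them transcripts of 1 gene with identical values, and 0 were called, against 4.69% of the 2347 features that have an adjusted p; 10 of the 29 had one. An unadjusted p under 0.05 was reached by 3 of the 29, beside 10.4% of the 6846 features with a p. The 29 include features with no p (transcripts of Rbmx, Ahcyl2 and Gamt), so these shares do not rest on like totals. The 3 were Mepce and a pair of Alkbh7 transcripts with identical values.

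Of 17 other methyltransferase and partner genes, 16 were measured in the input, 11 above 0 and 5 below, with a median of 0.09. Rnmt, which methylates the cap guanosine, had the lowest p of this list at −0.34 (SE 0.28, p = 0.229) in the authors' deposited table. Mettl5, which methylates 18S ribosomal RNA, stood at −0.33 (SE 0.30) and its stabilising partner Trmt112 at 0.25 (SE 0.30) in the authors' deposited table. Trmt10c, part of the enzyme that methylates mitochondrial transfer RNA, stood at 0.24 (SE 0.30) there, in the authors' deposited table. The immunoprecipitate was read as knockout over wild type only by assuming the same direction as the input, since its header states none. The p-values given for it are not tests of the fold change over the SE printed beside them. In it Mepce, which caps 7SK RNA, had a log2 fold change of −9.34 (SE 2.08, unadjusted p = 0.0235, no adjusted p) at a mean of 5.92 in the authors' deposited table. Trmt112 transcripts stood at −6.18 and −3.06 there, and Zcchc4, which methylates 28S ribosomal RNA, at −3.66 (SE 4.31), all at means under 4 in the authors' deposited table.

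The ALKBH family, to which Alkbh5 belongs, was measured in full in the input. Of the 7 other genes 6 lay above 0, with a median of 0.25, beside 53.5% and 0.02 for all genes. None was called, beside 0.0389% of all tested genes, so that count is near the background. The largest ratio of fold change to SE among the 7 was 1.14, for Alkbh1, so no direction can be read. Alkbh1 stood at 0.33 (SE 0.29, p = 0.256), Alkbh7 at 0.32 (SE 0.30), Alkbh3 at 0.29 (SE 0.29) and Alkbh4 at 0.25 (SE 0.29) in the authors' deposited table. Alkbh5 at 0.09 was lower than each of these 4, by less than any of their SEs. In the immunoprecipitate Alkbh7, a mitochondrial member of the family, had a pair of transcripts with identical values, −7.39 on the log2 scale (SE 2.15, unadjusted p = 0.00785, adjusted p = 0.0971) at a mean of 11.0 in the authors' deposited table. Alkbh8, a transfer RNA modifier, stood at −0.82 (SE 2.20) there, in the authors' deposited table. The median of all immunoprecipitate features was −1.59, and if the direction there is read the other way, every sign turns.

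Readers of methylated adenosine were measured for 15 of 15 genes in the input, 11 above 0 and 4 below, with a median of 0.10. The lowest p belonged to Fmr1 (0.35, SE 0.27, p = 0.185), Ythdc1 (0.31, SE 0.27), Ythdf3 (0.20, SE 0.24) and Elavl1 (0.22, SE 0.26) in the authors' deposited table. Ythdc1, the nuclear reader, had 3 transcripts in the immunoprecipitate, at −6.92 (SE 3.10, p = 0.110) and, as a pair with identical values, −0.80, in the authors' deposited table. Hnrnpa2b1 had transcripts at 1.63 and 1.62, and Igf2bp1 stood at 1.98 (SE 2.48), in the authors' deposited table for the immunoprecipitate. Transcripts of Ythdc1 thus lay further apart than those of Hnrnpa2b1, but at means of 3.71 and 6.35 against 26.5 and 27.9. The SEs for Ythdc1 were 3.10 and 2.60. No test of either gap was made, so the contrast is not read as a difference between these genes.

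Genes of the S-adenosylmethionine cycle had the widest range in the input, from −0.43 to 0.42 over 14 genes, with a median of 0.02. Pemt, a liver enzyme that uses much of the methyl donor for phosphatidylcholine, stood at 0.41 (SE 0.23, p = 0.0752), and Mat1a, the liver enzyme that makes the donor, at 0.42 (SE 0.27, p = 0.117) in the authors' deposited table. Ahcyl2, a relative of the enzyme that clears the spent donor, stood at −0.43 (SE 0.26) and the methionine synthase gene Mtr at −0.40 (SE 0.29) in the authors' deposited table. Of 9 genes of this list with immunoprecipitate features, Cbs had the lowest p with 1 transcript at −3.33 (SE 2.09, p = 0.120, mean 4.39), while its other 2 transcripts, with identical values at a mean of 14.3, stood at 1.08 (SE 1.71, p = 0.835) in the authors' deposited table. Next by p were Ahcyl1 at −6.69 (SE 3.09), Mat2a at −1.81 (SE 2.28) and Bhmt at 1.16 (SE 2.22) in the authors' deposited table.

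**Figure D5:**
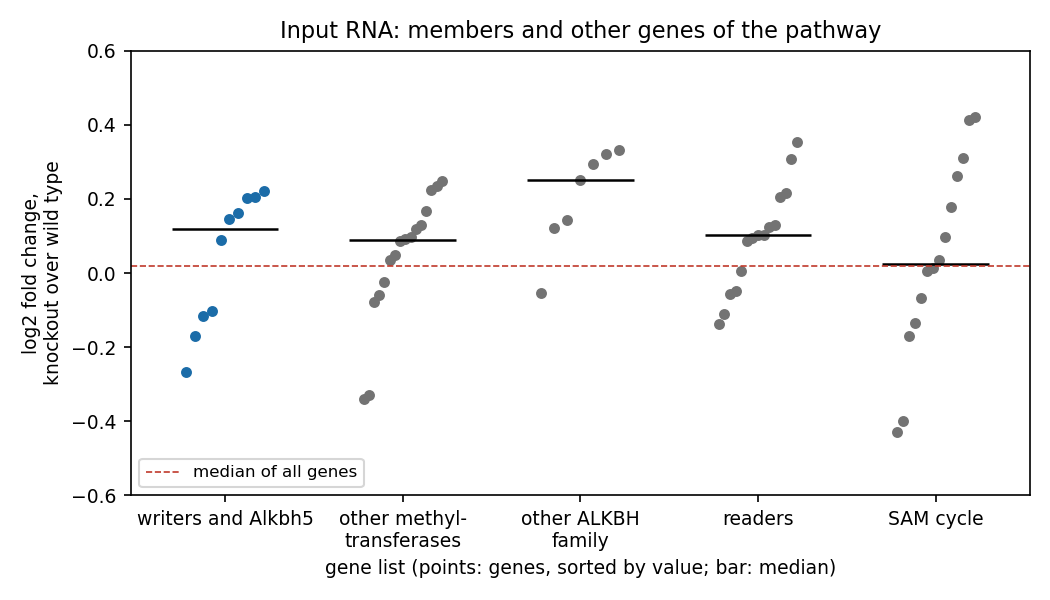
Points are genes of the input table by log2 fold change, for the 10 members and the 4 lists, with list medians as bars and the median of all genes, 0.02, as a dashed line. Member values from −0.27 to 0.22 lie inside the range of the other lists, −0.43 to 0.42.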

How the data were processed

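The submitters' processing notes list DESeq2, STAR, bedtools 2.25.0 and mm10 without saying what each was used for. The deposited tables hold, per the file headers, a mean normalized signal, a log2 fold change with its standard error, a test statistic (a score), a p-value and an adjusted p-value, all computed by the authors. The sources used here describe no counting rule, model or filter, and depth per library is unknown. In the input the statistic equalled fold change over standard error. In the immunoprecipitate it did not: Alkbh7 had a fold change of −7.39 (SE 2.15) with a statistic of 7.07. A p there is thus not a test of the fold change over its standard error. Genes were called at the authors' adjusted p under 0.05. Input names were matched to current symbols by gene identifier (12869 of 12883). Immunoprecipitate names were matched through the input's pairs of name and identifier (5701), current symbols (916) or synonyms (216). Benjamini-Hochberg adjustment for the alternatives was tested on simulated data (Python 3.11.15, pandas 2.3.3, scipy 1.17.1). Named were all members, Fto and, per list and table, up to 4 genes with the lowest p; Virma was added after its value was seen. Members and lists were chosen with earlier results of these data known.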

Additional observations from a re-analysis of the deposited data

How the results depend on the processing

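The count of 0 called members in the input, and the count of 0 called genes on the other lists there, were the same with p-values adjusted again over the table, with p from fold change over SE, at a threshold of 0.1, at a mean of at least 10 only (8 members and 44 list genes) and after centring. In each of these settings only 5 genes of the whole input were called, so a count of 0 could hardly move. The members' median of 0.12 was 0.11 after centring and 0.12 at a mean of at least 10, and no member changed sign. In the immunoprecipitate, the count of 0 called list features became 3 lower with p from fold change over SE, before and after centring (a pair of identical Alkbh7 transcripts and Mepce), where 819 and 660 of all 7569 features were called. It became 2 lower, both of Alkbh7, at a threshold of 0.1, where 204 of the 2347 features with an adjusted p were called. It stayed at 0 with p-values adjusted again, at a mean of at least 10 (8 list features) and with 1 feature per gene (18 list features). Over all features, these settings called 34, 119 and 62. With so few list features, a count of 0 there shows little. Alternatives for members in the immunoprecipitate could not give a value, since no feature matched. No paired analysis was possible because the tables hold no values for single replicates, which also means that no replicate could be left out. Depth limits Cbll1 and Mettl4 most, at means under 10.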
